A study of Mus musculus with 24 samples.

Results

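The genes described here encode the enzymes that methylate lysine 4 of histone H3 (H3K4) and the subunits these enzymes work with. They were chosen by name: all rows of the deposited RNA-seq table whose gene name was Kmt2a, Kmt2b, Kmt2c, Kmt2d, Setd1a, Setd1b, Cxxc1, Wdr5, Ash2l or Rbbp5. All 10 were found, each in 1 row, among 16572 gene names. RNA-seq was performed on class IV mouse oocytes, the largest size class of a follicle-free culture, which were taken from dissociated ovaries of mice aged 7 days (strain labelled C57BL/6 Barb, while the study's text has C57BL6/Babr and its methods a cross with SV129). IV 5% O2 oocytes were cultured for 9 days in 5% oxygen and IV 20% O2 oocytes for 14 days in 20% oxygen. By the study's methods, the medium was also changed more often for IV 5% O2. Oxygen, culture time and medium changes therefore cannot be told apart. The labels give a diameter of 60 to 70 μm for both conditions, whereas the methods give smaller oocytes for IV 20% O2. The labels name no other treatment of these samples, and theca-like supporting cells were present at the start of the cultures. Pools of oocytes were sequenced as 2 libraries per condition, but the table holds 1 pooled column per condition, and no difference below has an SD, a replicate check or a p-value.

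H3K4 methylation is laid down by 3 pairs of related enzymes, each of which carries a catalytic SET domain. Kmt2a and Kmt2b (MLL1 and MLL2) form one pair, Kmt2c and Kmt2d (MLL3 and MLL4) act mainly at enhancers, and Setd1a and Setd1b place H3K4me3 at active promoters. All of them depend on a shared core of Wdr5, Ash2l, Rbbp5 and Dpy30, and Cxxc1 brings the Setd1 enzymes to unmethylated CpG sites. In growing mouse oocytes Kmt2b is required for much of the H3K4me3, and H3K4 methylation hinders the binding of Dnmt3a and Dnmt3l, so that it counteracts DNA methylation.

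The 6 enzymes all had lower values in IV 5% O2, and the other 4 genes all had higher values there, although the direction of Ash2l and Rbbp5 depended on the scaling. Values are RPM, the reads of a gene scaled to the depth of its column without a correction for gene length. Each difference is the log2(RPM + 1) in IV 5% O2 less that in IV 20% O2. The median difference was -0.83 for the enzymes and 0.38 for Cxxc1 and the 3 core subunits, against 0.26 for all 14704 genes tested. Of all genes tested, 37.4% were lower in IV 5% O2 by any amount and 62.6% were higher. At least 2-fold lower values were found for Kmt2d and Setd1b, 2 of the 10 genes, against a background of 9.22% of all genes. Cxxc1 was the 1 gene at least 2-fold higher, against a background of 18.7%. All 10 genes passed the filter of a mean of at least 1 RPM. In a pool of oocytes, fewer oocytes with a transcript and less of it in each oocyte cannot be told apart.

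From the value of 1 read, the IV 5% O2 column was scaled to 132185258 reads and the IV 20% O2 column to 40875360. Of these, 82.9% and 72.8% lay on the genes of the table, so the share on genes was unequal. Intervals given with a difference are exact 95% Clopper-Pearson intervals of the ratio of reads without the pseudocount. They cover counting error only and compare these columns, not the conditions. The oocyte identity was checked on 10 oocyte markers, which were all present and summed to 9443 RPM in IV 5% O2 against 12898 in IV 20% O2. Of these, 7 were lower in IV 5% O2 (background 37.4%), among them Zp2 (-1.31) and Zp3 (-1.12) past 2-fold (background 9.22%), and 3 were higher, with Nobox at 0.87. Markers of other cells of the ovary had far fewer reads. Of the 14 theca and stroma markers 9 were in the table, 6 of which passed the filter. All 9 were higher in IV 5% O2 (background 62.6%, over genes past the filter only), where they summed to 40.3 RPM against 3.18 RPM. Of the 6, all but Star passed the filter only through IV 5% O2, so this count says nothing of the list. Col1a2, Vim and Dcn had no reads in IV 20% O2. The 5 of 8 granulosa markers in the table summed to 31.2 and 24.2 RPM, with no reads for Fshr in IV 5% O2 and none for Inha in IV 20% O2. The 3 endothelial markers in the table summed to 61.0 and 36.1 RPM (Kdr without reads in IV 20% O2), the 3 macrophage markers to 17.9 and 21.1 RPM (Lyz2 without reads in IV 20% O2), and the erythroid marker Alas2 had 1.32 and 1.57 RPM. The part of such cells in the differences below was not tested.

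**Figure D1:**
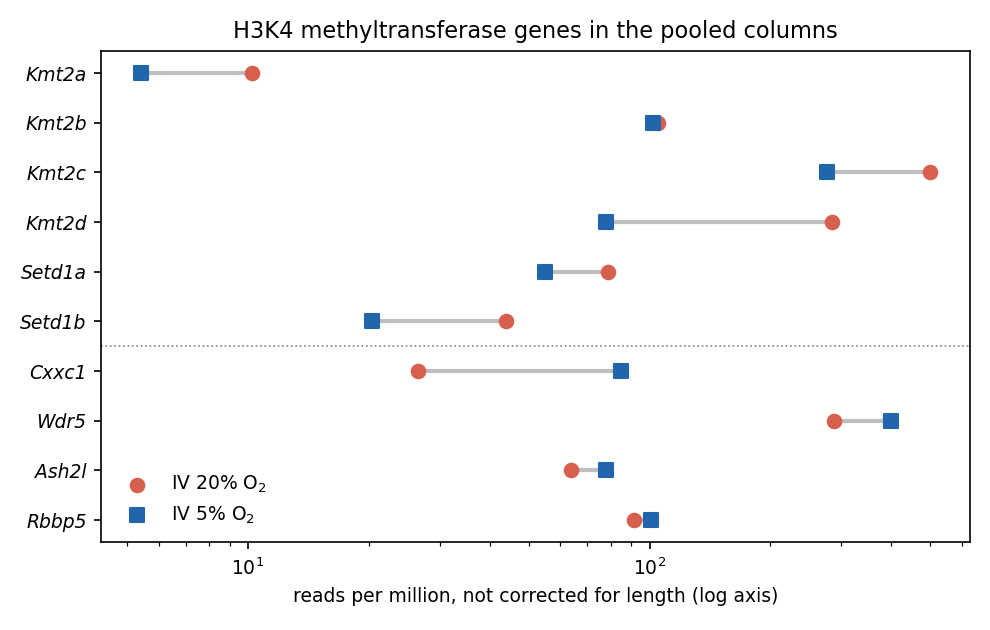
RPM (log axis) of the 10 genes in the pooled IV 5% O2 column (squares) and the pooled IV 20% O2 column (circles), 1 value per condition, with the enzymes above the dotted line. All 6 squares above the line lie to the left of their circles, from 1.03-fold for Kmt2b to 3.62-fold for Kmt2d on the RPM + 1 scale, and all 4 below it lie to the right.

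The KMT2C/D pair held most of the enzyme reads and had the largest gap. Kmt2d (GRCm38, chromosome 15, 98831669 to 98871204) was at 77.9 RPM in IV 5% O2 (10297 reads) against 285 in IV 20% O2 (11646 reads). IV 5% O2 thus had fewer reads of Kmt2d than IV 20% O2 in spite of its greater depth. The log2 difference of Kmt2d was -1.86 (interval -1.91 to -1.83), a 3.62-fold lower value, and only 3.03% of all genes tested had a lower difference. Kmt2c (chromosome 5, 25271798 to 25498783), its paralogue, was at 276 RPM in IV 5% O2 against 500.4 in IV 20% O2. This gave a log2 difference of -0.85 (interval -0.88 to -0.83), and 11.2% of all genes tested had a lower one. Together the pair summed to 354 RPM in IV 5% O2 against 785 in IV 20% O2, or 66.0% and 76.7% of the reads of all 6 enzymes.

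Setd1b (chromosome 5, 123142193 to 123168629) was at 20.4 RPM in IV 5% O2 against 43.9 in IV 20% O2. This made a log2 difference of -1.07 (interval -1.19 to -1.02) and placed it just past the 2-fold limit. With a pseudocount of 5 RPM it dropped back to -0.94. On values per kb of exon it was at -0.78, because the same pseudocount was added to smaller values (1.69 and 3.63 RPKM). Length itself does not alter the ratio of a gene between columns. Setd1a (chromosome 7, 127776670 to 127800122) was at 55.0 RPM in IV 5% O2 against 78.8 in IV 20% O2 (log2 difference -0.51, interval -0.58 to -0.46). The value of Setd1a is uncertain, because 54.0% of the 50-base windows of its longest transcript also belong to Gm49388, an overlapping gene on the same strand. Gm49388 was at 89.3 RPM in IV 5% O2 against 70.0 in IV 20% O2 and thus differed in the other direction. Exons of the antisense gene 9430064I24Rik also overlap Setd1a, with 25.3 and 10.4 RPM. How reads in shared exons were assigned is not given in the sources used here, although the libraries themselves were strand-specific.

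Kmt2b and Kmt2a, the pair that includes the main H3K4me3 enzyme of oocytes, stood apart from each other in size. Kmt2b (chromosome 7, 30568858 to 30588726) was at 102 RPM in IV 5% O2 (13475 reads) against 105 in IV 20% O2 (4302 reads). The log2 difference, -0.05, had an interval of -0.0957 to 0.0038 that includes 0, so no difference was detectable at this depth in the columns as deposited. Relative to the median gene, however, Kmt2b was at -0.30. Kmt2a (chromosome 9, 44803355 to 44881296) was the scarcest of the 10 genes, with 5.40 RPM in IV 5% O2 (714 reads) against 10.2 in IV 20% O2 (418 reads). On the log2 scale it differed by -0.81, with the widest interval of the 10 genes (-1.10 to -0.74).

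Cxxc1, which encodes the CpG-binding subunit of the Setd1 complexes, was far higher in IV 5% O2. Its gene (chromosome 18, 74216124 to 74221496) was at 85.1 RPM in IV 5% O2 (11246 reads) against 26.5 in IV 20% O2 (1084 reads). The log2 difference of 1.65 (interval 1.59 to 1.77), or 3.13-fold, was exceeded by 5.64% of all genes tested. It remained past 2-fold under each processing alternative, between 1.06 and 1.68.

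The core subunits differed little. Wdr5, the scaffold that docks the enzymes (chromosome 2, 27515157 to 27536535), was at 399 RPM in IV 5% O2 against 288 in IV 20% O2 (log2 difference 0.47, interval 0.44 to 0.50). Ash2l (chromosome 8, 25815996 to 25847694) had 77.8 and 63.8 RPM (log2 difference 0.28, interval 0.22 to 0.35). Rbbp5 (chromosome 1, 132477365 to 132505659), which with Ash2l activates the SET domain, had 101 and 91.3 RPM (log2 difference 0.14, interval 0.09 to 0.19). Set against the median gene, they were at 0.21, 0.02 and -0.12, so that Ash2l lay at the median and Rbbp5 below it. The enzymes were at -1.07 (Kmt2a), -0.30 (Kmt2b), -1.11 (Kmt2c), -2.12 (Kmt2d), -0.77 (Setd1a) and -1.33 (Setd1b) on the same basis, and Cxxc1 at 1.39.

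**Figure D2:**
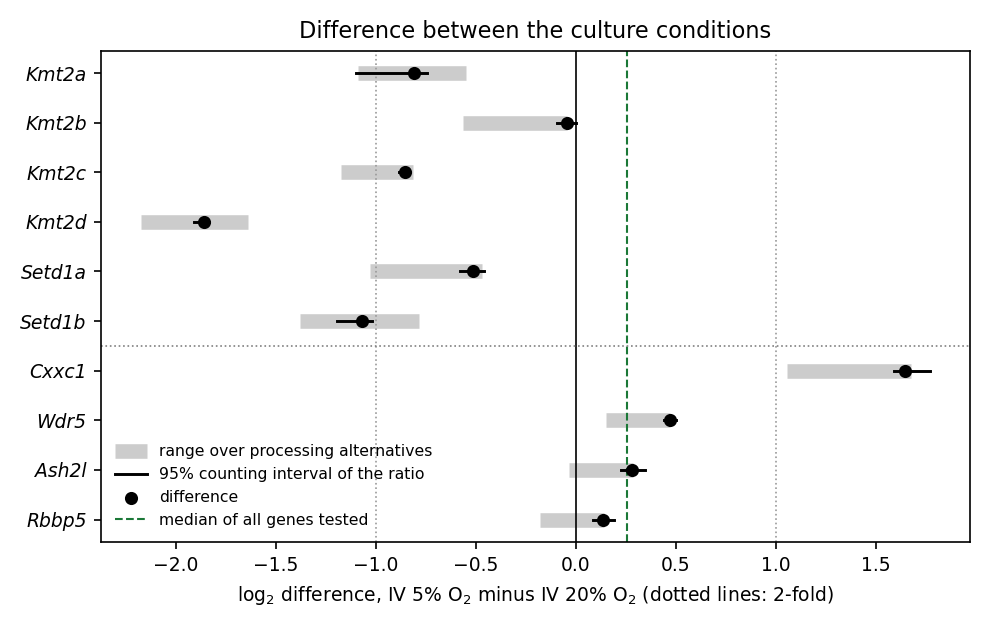
Log2 difference of each gene between the pooled columns (points, IV 5% O2 minus IV 20% O2) with its 95% counting interval (black lines, for the ratio without pseudocount) and the range over the processing alternatives (grey bars). The dashed line marks the median of all genes tested (0.26) and the dotted vertical lines a 2-fold difference. The bars of the 6 enzymes stay below 0 and those of Cxxc1 and Wdr5 above it, while those of Ash2l and Rbbp5 cross 0.

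Median-ratio scaling and quantile normalization placed the median gene at -0.04 and 0.06 in place of 0.26. The 6 enzymes were lower in IV 5% O2 with both. Ash2l and Rbbp5 changed sign with median-ratio scaling, and Rbbp5 also with quantile normalization, so the direction of these core subunits depends on the scaling. With median-ratio scaling, 4 of the 10 genes (Kmt2a, Kmt2c, Kmt2d and Setd1b) were at least 2-fold lower, against a background of 13.9% of all genes under that scaling.

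Promoters were compared where RefSeq gave one. The 250 bases before the start were available for 6 of the 10 genes in GRCm38.p6 and are shown for the KMT2C/D pair, with the most enzyme reads and the largest difference, and for the core subunits Wdr5 and Rbbp5. CpG sites, which Cxxc1 and Kmt2a and Kmt2b recognise when unmethylated, are in capitals. Kmt2d lies at chr15:98871206-98871455 on the minus strand, Kmt2c at chr5:25498784-25499033 on the minus strand, Wdr5 at chr2:27514897-27515146 and Rbbp5 at chr1:132477117-132477366, both on the plus strand.
Kmt2d: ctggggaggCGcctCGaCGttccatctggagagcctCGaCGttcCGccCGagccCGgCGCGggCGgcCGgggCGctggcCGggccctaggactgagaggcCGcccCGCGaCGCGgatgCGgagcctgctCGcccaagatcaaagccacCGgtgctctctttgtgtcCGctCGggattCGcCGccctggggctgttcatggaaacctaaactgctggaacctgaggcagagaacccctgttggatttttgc
Kmt2c: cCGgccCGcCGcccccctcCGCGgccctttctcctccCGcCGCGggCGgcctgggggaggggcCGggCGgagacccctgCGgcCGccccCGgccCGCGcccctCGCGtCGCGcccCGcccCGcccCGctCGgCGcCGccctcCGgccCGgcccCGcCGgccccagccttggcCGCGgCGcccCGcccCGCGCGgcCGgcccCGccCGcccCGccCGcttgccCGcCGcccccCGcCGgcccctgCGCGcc
Wdr5: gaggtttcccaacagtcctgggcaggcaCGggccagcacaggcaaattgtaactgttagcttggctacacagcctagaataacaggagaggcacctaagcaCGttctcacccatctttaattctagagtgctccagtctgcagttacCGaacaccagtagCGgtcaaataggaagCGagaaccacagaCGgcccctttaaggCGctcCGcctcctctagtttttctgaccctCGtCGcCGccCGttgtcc
Rbbp5: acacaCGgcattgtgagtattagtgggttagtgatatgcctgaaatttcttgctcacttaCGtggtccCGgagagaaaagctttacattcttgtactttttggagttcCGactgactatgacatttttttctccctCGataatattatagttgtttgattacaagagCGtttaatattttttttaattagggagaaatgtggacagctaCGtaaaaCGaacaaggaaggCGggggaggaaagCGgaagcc

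All 4 of these windows hold more CpG sites than the median of 6 over 32851 RefSeq promoters (quartiles 2 and 16). Kmt2c had 48 CpG sites and a GC content of 91.6%, and 99.8% of promoters had fewer sites. Kmt2d had 26 CpG sites, Kmt2a 29 and Setd1a 25, and these lay above 90.4%, 93.2% and 89.3% of promoters. Wdr5 with 12 and Rbbp5 with 10 CpG sites lay above 66.5% and 62.2%. The 4 enzymes with a promoter sequence thus had more CpG sites than both core subunits, a description over 6 genes without a test. For Setd1a the window (chr7:127777139-127777388) lies within the gene as annotated here, which starts at 127776670. The core of the hypoxia response element was searched on both strands as ACGTG and GCGTG, and no match of one is a match of the other. ACGTG occurred once each in the windows of Wdr5 and Rbbp5 and in 16.6% of all promoters, and GCGTG in 0 of the 6 windows and 28.2% of all promoters. A match describes these letters only and says nothing of binding.

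Ratios between genes within a column do not depend on a scaling of the whole column. Kmt2a had 0.0530 reads for each read of Kmt2b in IV 5% O2 (95% interval 0.0491 to 0.0571) and 0.0972 in IV 20% O2 (0.0879 to 0.107). The log2 ratio was therefore 0.87 lower in IV 5% O2 (-0.87, interval -1.06 to -0.69), or -0.76 with the pseudocount. Kmt2c had 3.55 reads for each read of Kmt2d in IV 5% O2 and 1.76 in IV 20% O2, a shift of 1.01 (interval 0.97 to 1.06) towards Kmt2c, and 1.00 with the pseudocount. For Setd1a over Setd1b the ratios were 2.69 and 1.80, a shift of 0.59 (interval 0.48 to 0.69) towards Setd1a and 0.56 with the pseudocount, with the exons that Setd1a shares with Gm49388 included. The intervals of these ratios use a normal approximation to the log of the read counts.

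Further ratios were chosen after the values had been seen. Reads of the 6 enzymes summed to 537 RPM in IV 5% O2 against 1023 in IV 20% O2, and those of Wdr5, Ash2l and Rbbp5 to 578 and 443 RPM. The ratio of enzymes to core subunits was 0.929 in IV 5% O2 (interval 0.920 to 0.939) and 2.31 in IV 20% O2 (2.27 to 2.35), a 2.49-fold gap in which Kmt2c and Wdr5 carry most of the reads. For Cxxc1 over the sum of Setd1a and Setd1b, the enzymes it works with, the ratio was 1.13 in IV 5% O2 (1.10 to 1.16) and 0.216 in IV 20% O2 (0.203 to 0.231), a 5.22-fold gap. These are ratios of reads, and their level depends on gene length. Both include the exons that Setd1a shares with Gm49388. From RPKM, the enzymes stood at 0.263 and 0.596 of the core subunits, and Cxxc1 at 2.22 and 0.444 of the Setd1 enzymes.

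**Figure D3:**
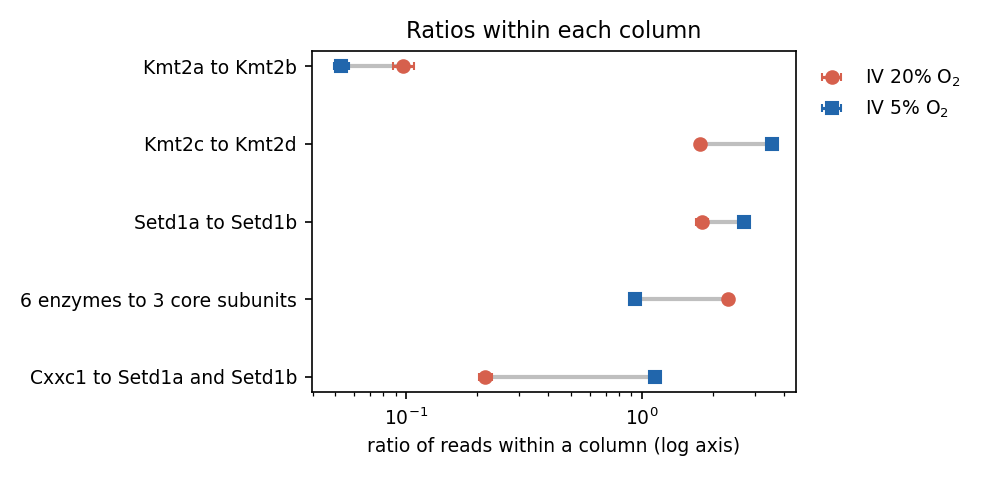
Ratio of reads between genes of the same pooled column (log axis) for IV 5% O2 (squares) and IV 20% O2 (circles), with 95% counting intervals as bars that are mostly narrower than the symbols. The widest gap between the columns is that of Cxxc1 to the Setd1 enzymes (1.13 and 0.216), with the exons that Setd1a shares with Gm49388 included. Reads are not corrected for length, so the place of a ratio on the axis does not compare levels of different genes.

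Levels of different genes can be compared only per length, and RPM were divided by the kb of annotated exon for this purpose (RPKM). Wdr5 was the most abundant of the 10 genes in both conditions, with 111 RPKM in IV 5% O2 and 80.0 RPKM in IV 20% O2, and more abundant than 98.4% and 97.6% of genes tested. In IV 5% O2 it was followed by Rbbp5 (25.6 RPKM), Cxxc1 (21.7 RPKM), Kmt2c (13.6 RPKM), Kmt2b (10.6 RPKM), Ash2l (8.68 RPKM), Setd1a (8.09 RPKM), Kmt2d (3.91 RPKM), Setd1b (1.69 RPKM) and Kmt2a (0.324 RPKM). In IV 20% O2 the order was Wdr5, Kmt2c (24.7 RPKM), Rbbp5 (23.2 RPKM), Kmt2d (14.3 RPKM), Setd1a (11.6 RPKM), Kmt2b (11.0 RPKM), Ash2l (7.11 RPKM), Cxxc1 (6.76 RPKM), Setd1b (3.63 RPKM) and Kmt2a (0.613 RPKM). Wdr5 at the top and Setd1b and Kmt2a at the bottom held their places, whereas Cxxc1 stood at place 3 in IV 5% O2 and place 8 in IV 20% O2. Kmt2d stood at place 8 and place 4. No spread between libraries can be given for neighbours in this order. Ash2l depended most on the gene model, with 21.0 and 17.2 RPKM when its longest transcript (3702 bases) stood for its 8969 exonic bases.

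Among the enzymes alone, Kmt2c took the largest share of the summed RPKM in both conditions, 35.6% in IV 5% O2 and 37.5% in IV 20% O2. Kmt2b accounted for 27.8% in IV 5% O2 and 16.7% in IV 20% O2, and Setd1a for 21.1% and 17.6%. Kmt2d accounted for 10.2% and 21.7%, so that Kmt2b was ahead of Kmt2d in IV 5% O2 and behind it in IV 20% O2. With the longest transcript as length, Kmt2b had 26.4% and 15.9% and Kmt2d 8.63% and 18.4%. The shares of Setd1b were 4.42% and 5.53% and those of Kmt2a 0.847% and 0.933%.

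The remaining subunits of the complexes were taken from a list of 12 genes, all of which were tested. Of these, 7 were higher and 5 lower in IV 5% O2 (backgrounds 62.6% and 37.4%), with a median difference of 0.15. With median-ratio scaling 4 were higher and 8 lower, as Dpy30 (-0.03), Men1 (-0.02) and Kdm6a (-0.30) changed sign, and with quantile normalization 6 and 6. The backgrounds of 62.6% and 37.4% do not apply to these scalings, which placed the median gene at -0.04 and 0.06. Psip1 was the 1 gene at least 2-fold higher (background 18.7%), which it was not with median-ratio scaling (0.93), and 0 were at least 2-fold lower (background 9.22%). Dpy30, the remaining core subunit, was at 68.2 RPM in IV 5% O2 against 55.9 in IV 20% O2, a log2 difference of 0.28 whose direction depended on the scaling, as for Ash2l. Among the partners of Kmt2a and Kmt2b, Psip1 (LEDGF), which tethers the complex to chromatin, had 186 and 78.0 RPM and a log2 difference of 1.25 (interval 1.20 to 1.31). Men1, which encodes menin, had 72.1 and 58.5 RPM (0.30), Hcfc2 10.8 and 13.3 RPM (-0.29), and Hcfc1, which the Setd1 complexes also use, 89.0 and 107 RPM (-0.26).

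The partners of the Setd1 enzymes did not share one direction. Wdr82, which links them to transcribing RNA polymerase II, was at 233 RPM in IV 5% O2 against 277 in IV 20% O2, a log2 difference of -0.25. Bod1l had 191 and 136 RPM (0.49) and Bod1 342 and 191 RPM (0.83). Cxxc1 thus had a larger difference than any of these partners. Of the partners of Kmt2c and Kmt2d, the H3K27 demethylase gene Kdm6a had 247 and 244 RPM (0.01), Ncoa6 101 and 114 RPM (-0.16), Paxip1 40.4 and 45.1 RPM (-0.16) and Pagr1a 48.2 and 24.9 RPM (0.93). These partners thus lay between -0.16 and 0.93, while Kmt2d itself was at -1.86.

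**Figure D4:**
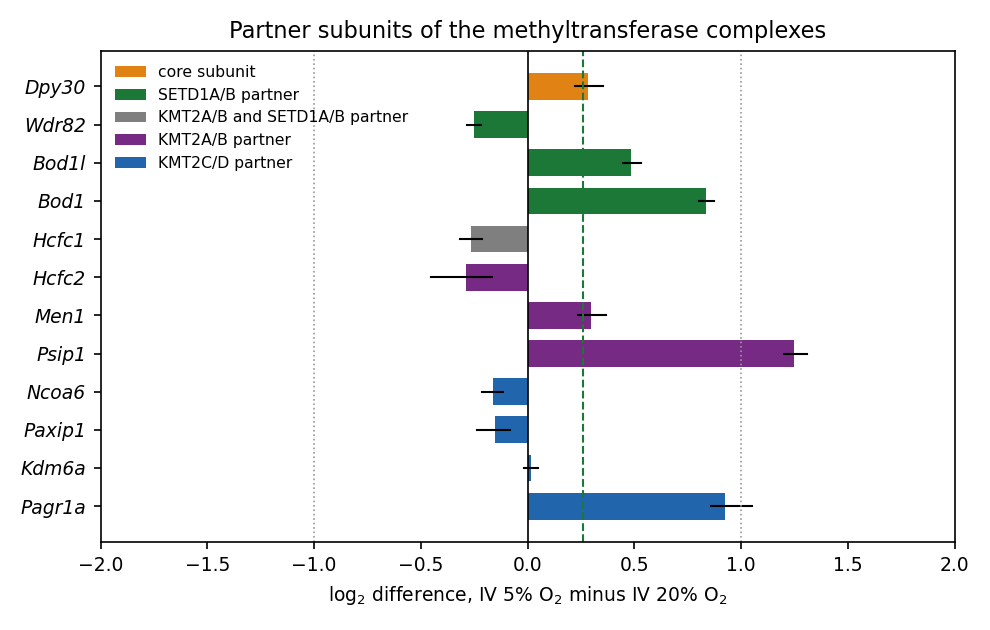
Log2 difference between the pooled columns (bars from 0, IV 5% O2 minus IV 20% O2) for 12 partner subunits, coloured by the complex they belong to, with 95% counting intervals of the ratio as black lines. The dashed line marks the median of all genes tested and the dotted lines a 2-fold difference, which only Psip1 passes (1.25).

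The other genes of H3K4 biology were counted from lists of 44 measured genes in all, the partners included. Of the 44, 7 were at least 2-fold higher in IV 5% O2 and 2 at least 2-fold lower, with a median of 0.27. These shares were no larger than those of all genes (18.7% and 9.22%), whose median was 0.26. Of the lower genes, Kdm5d passed the filter only through the column where it was high. With median-ratio scaling, 2 of the 44, Ing2 and Fbxl19, were at least 2-fold higher, against 11.6% of all genes. Of the 11 genes for proteins that bind H3K4me3, 4 were at least 2-fold higher (background 18.7%), 3 of which were below 2-fold with median-ratio scaling. These 4 were Ing2 (20.3 and 4.89 RPM, 1.85), Ing3 (60.5 and 25.1 RPM, 1.24) and Ing1 (167 and 74.3 RPM, 1.15), which encode PHD-finger proteins, and the remodeller gene Chd1 (74.8 and 34.7 RPM, 1.09). Lower values in IV 5% O2 were found for 4 of the 11 (background 37.4%), namely Ing4 (-0.16), Spin1 (-0.09, but 0.28 with quantile normalization), Bptf (-0.18) and Phf8 (-0.41). Of the 7 measured genes for other CXXC-type proteins, many of which bind CpG sites like Cxxc1, 2 were at least 2-fold higher (background 18.7%). They were Fbxl19 (145 and 45.7 RPM, 1.64) and Tet1 (4.05 and 1.20 RPM, 1.20). Tet3, which has the most reads of this list, was lower in IV 5% O2 (498 and 984 RPM, -0.98).

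Of the 7 H3K4 demethylase genes, which remove the mark, 4 were higher and 3 lower in IV 5% O2 (backgrounds 62.6% and 37.4%), with a median of 0.06. With median-ratio scaling 2 were higher and 5 lower, as Kdm5b (-0.01) and Kdm5c (-0.26) changed sign. That scaling placed the median gene at -0.04, so the 62.6% and 37.4% do not apply to it. The 1 at least 2-fold lower (background 9.22%) was Kdm5d, a Y-linked relative of Kdm5c, with 5 reads in IV 5% O2 (0.0378 RPM) and 107 reads in IV 20% O2 (2.62 RPM). It passed the filter only through the column where it was high, so this count says nothing of the list, and it was not past 2-fold with a pseudocount of 5 RPM. Female cells carry no Y chromosome, and the source of these reads was not tested. Kdm5c itself was at 112 and 108 RPM (0.06), and how reads shared by these paralogues were counted was not tested. Of 6 other SET and MLL-like genes measured, 1 was at least 2-fold lower (background 9.22%), the SET-domain gene Setmar at 7.16 and 16.8 RPM (-1.12). Kmt2e, an MLL relative, had 18.7 and 15.6 RPM (0.25, but -0.05 with median-ratio scaling). Tasp1, the protease that cleaves Kmt2a and Kmt2b, was at 6.03 RPM in IV 5% O2 against 3.43 in IV 20% O2 (0.67).

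Most of the enzymes are encoded by long genes, and length and base composition were therefore set beside their differences. Their exons summed to between 6795 bases (Setd1a) and 20291 bases (Kmt2c), and those of Cxxc1, Wdr5 and Rbbp5 to between 3596 and 3930 bases. Ash2l, with 8969 bases, lay within the range of the enzymes. Over the 1330 genes tested with 10 kb and over of exon, the median difference was 0.13, and 7.89% of them were at least 2-fold lower. It was 0.25 over the 2922 genes with 6 to 10 kb and 0.33 over the 4361 genes with 2 to 4 kb. Relative to the 10 kb class, the differences were -0.94 for Kmt2a, -0.98 for Kmt2c, -1.99 for Kmt2d and -1.20 for Setd1b. The GC content of the longest transcript was 59.1% for Kmt2b, 58.4% for Kmt2d, 57.0% for Setd1a and 59.0% for Setd1b, but 47.6% for Kmt2c and 50.6% for Kmt2a. Cxxc1 was at 58.4%, Wdr5 at 51.5% and Rbbp5 at 46.9%, with Ash2l below them. The median difference of genes with a GC content of 56% and over was higher than that of all genes, at 0.49. Relative to genes alike in both length and GC content, the enzymes were between -0.57 (Kmt2b) and -2.06 (Kmt2d), Cxxc1 was at 1.06, Wdr5 at 0.21, Ash2l at 0.04 and Rbbp5 at -0.10. The part of length and GC content in the differences was not tested.

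**Figure D5:**
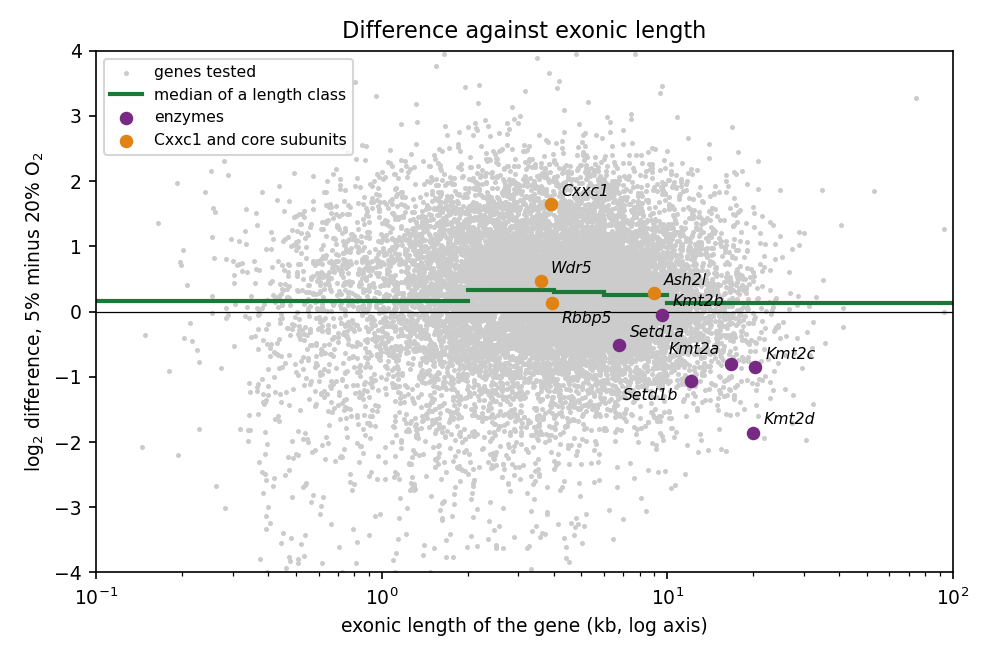
Log2 difference (IV 5% O2 minus IV 20% O2) against exonic length (log axis) for all genes tested (grey, those beyond 4 in either direction not drawn), the median of each length class (green lines), the enzymes (purple) and Cxxc1 with the core subunits (orange). The class medians run between 0.13 and 0.33, and the enzymes lie between -0.05 and -1.86.

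To see whether reads of one gene could have been counted for another, windows of 50 bases were compared, and 0 windows of the 10 longest transcripts occur in a transcript of another of the 10 genes. Apart from Setd1a, the share of windows found in transcripts of any other gene was at most 6.71% (Rbbp5). For Kmt2c it was 1.51%, all within the antisense gene Gm42585 (12.9 and 11.2 RPM), and for Kmt2d 1.71%.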

How the data were processed

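Class IV oocytes were sequenced as 2 RNA libraries per condition. The authors aligned paired-end reads to mm10 (TopHat2 2.0.9 in the submitters' processing notes), merged reads across exons and deposited log2 values from SeqMonk with 1 pooled column per condition. How the 2 libraries were combined is not given in the sources used here. The table also holds 1 value column of none of the samples, which was not used. On the linear scale, 99.98% of values in each column lay within 0.1 of a whole multiple of 1 read, so values are RPM without length correction. The study's methods, in contrast, describe a correction for feature length. Values at 0.9 of a read were set to 0. The planned limma test needs values per library and was not run. Genes at least 2-fold apart on log2(RPM + 1) were counted among those with a mean of at least 1 RPM, with the highest row standing for each of the 18 repeated names. Exonic lengths and windows came from GENCODE vM21 (GRCm38). The members and lists were chosen with earlier results of these data known. Genes named were the 10 members, all COMPASS partners, and up to 3 higher and 3 lower past 2-fold per H3K4 list, while Chd1, Kmt2e, Tasp1, Tet3, Kdm5c, Kdm5b, the oocyte markers given singly, the lower H3K4me3 readers, the overlapping genes and the ratios of summed reads were added after their values were seen. The alternatives were pseudocounts of 0.1 and 5 RPM, no filter or a mean of at least 5 RPM, both scalings, sums over rows, values per kb, a 1.5-fold limit, the longest transcript and, chosen after seeing the data, medians of genes alike in length and GC content. The functions were tested on simulated data. The scripts used matplotlib 3.10.9, scipy 1.17.1, pandas 2.3.3 and numpy 2.4.6 under Python 3.11.15.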

Additional observations from a re-analysis of the deposited data

How the results depend on the processing

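No paired analysis was possible because a condition has a single pooled column without a replicate number. For the same reason limma was not run and no library could be left out. The 6 enzymes were lower in IV 5% O2 under each alternative run, except that Kmt2a was not tested on values per kb. With a pseudocount of 5 RPM, 1 of the 10 genes was at least 2-fold lower (Kmt2d) in place of 2, 0 of the pathway genes in place of 2, 706 of all genes in place of 1356, and 1202 higher in place of 2753. The log2 ratio of Kmt2a to Kmt2b shifted by -0.51. At a mean of at least 5 RPM, 1 pathway gene was lower and 1691 of all genes were higher. Median-ratio scaling gave 4 of the 10 genes lower, 2 pathway genes higher in place of 7, and 1700 of all genes higher and 2031 lower, with medians of -0.59 for the 10 genes (in place of -0.28) and -1.13 for the enzymes, and reversed Ash2l (-0.0326) and Rbbp5 (-0.18). Higher genes made up 45.6% of all 2-fold differences with this scaling and 48.6% with quantile normalization, in place of 67.0%. Quantile normalization gave 4 pathway genes and 1764 of all genes higher, a median of -0.47, a shift of Kmt2c to Kmt2d of 1.06, and reversed Rbbp5 (-0.0515). Values per kb gave 1 of the 10 genes, 1 pathway gene and 897 of all genes lower, 1602 of all genes higher and a median of -0.0421 over 9 genes tested. On these smaller values the pseudocount and the filter were kept, which left 12076 of all genes tested. At a 1.5-fold limit, 4 of the 10 genes and 2468 of all genes (16.8%) were lower. At the same limit, 16 of the 44 pathway genes and 5096 of all genes (34.7%) were higher. Relative to genes alike in length and GC content, 3 of the 10 genes were at least 2-fold lower, among them Setd1a (-1.03). On this basis 1705 of all genes were higher, the median of the 10 genes was -0.75, and Rbbp5 reversed (-0.0964). With the longest transcript, 5 of 10 ranks were the same in IV 5% O2. Under the alternatives that can alter the value of a single gene, 23 of 59 values stayed within the counting interval, 32 moved beyond it in the same direction and 4 reversed. The cause was not tested. Kmt2a rests on 418 reads in IV 20% O2, and no spread between libraries is known for any gene.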
